A study of Arabidopsis thaliana with 30 samples.

Results

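RNA levels in whole wild-type Arabidopsis seed were compared between mid-maturation and 24 hours after fertilization on the AtGenome1 GeneChip, an early Affymetrix oligonucleotide array. The comparison used 4 of the 30 arrays of the series, 2 from WT Mid-Maturation Seed and 2 from WT 24-Hr Seed, chosen by their titles, and 8247 of 8297 probe sets, the other 50 being array controls. All 4 arrays held RNA of ecotype Ws-0 without a mutation. The labels call the 2 arrays of a stage technical replicates, so each stage is 1 sample, the spread between arrays is that of the measurement alone, and no p-value is given for AtGenome1. The other groups used were lec1 Mid-Maturation Seed and lec1 24-Hr Seed (lec1 mutants in Ws-0) and WT Late-Maturation Seed, with 2 technical replicates each on AtGenome1, and wild-type Ws-0 seed at the cotyledon, mature green, post-mature green and 24-hour stages on the later ATH1 GeneChip. The ATH1 groups had 2 arrays each, called biological replicates. The description field of the AtGenome1 samples mentions ATH1, but their titles and probe set count fit AtGenome1. The lec1 allele on AtGenome1 is not given. Whether any RNA was hybridized to both array types is not stated. A whole seed holds embryo, endosperm and seed coat, and in such bulk RNA a change in the number of cells of a type and a change in RNA per cell cannot be told apart.

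Seed development in Arabidopsis runs from a phase of cell division after fertilization to maturation, in which the embryo stores protein and oil and acquires tolerance of drying. Storage proteins are packed into vacuoles, where vacuolar processing enzymes cut them, and oil is held in droplets coated with oleosins. In the same period the inner seed coat makes proanthocyanidins, the tannins that give the brown colour, and the outer coat fills with mucilage. Genes for late embryogenesis abundant (LEA) proteins, small hydrophilic proteins linked to drying, are known for their activity near the end of maturation. The comparison asked which transcripts of these programmes differed between the early seed and mid-maturation.

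AtGenome1 values are average differences, the mean difference between matched and mismatched probes, which can be negative for weak transcripts. Values below 250 were set to 250 before log2 was taken. A probe set was called when all 4 pairings of a mid-maturation array with a 24-hour array differed at least 2-fold in 1 direction. By this rule 646 probe sets were higher in mid-maturation seed, 7.83% of those tested, and 643 were lower, 7.8%. At 2-fold or more, 55 probe sets (0.667%) differed between the 2 mid-maturation arrays and 35 (0.424%) between the 2 24-hour arrays. Pearson's r of the floored log2 values across the 8247 probe sets was 0.992 between the mid-maturation arrays and 0.995 between the 24-hour arrays, against 0.860 to 0.865 across stages, so the stages lay farther apart than the arrays of a stage. The ratio of the 3′ to the 5′ GAPDH control probe sets, a measure that rises as RNA breaks down, was 2.96 and 3.14 in mid-maturation seed and 3.10 and 3.10 in 24-hour seed. This ratio was higher in the other AtGenome1 groups. It was 3.47 and 3.80 in lec1 mid-maturation seed and 4.08 and 3.70 in lec1 24-hour seed. Wild-type late-maturation seed had 4.11 and 4.83. On all 4 arrays of the comparison, 2339 probe sets (28.4%) lay below 250 and could show no difference.

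The higher calls were of larger size than the lower ones. Their median log2 difference was 2.1, against -1.74 for the lower calls, and the median over all 8247 probe sets was 0. At 16-fold or more in all 4 pairings, 68 probe sets were higher and 28 lower. At 32-fold or more, 34 were higher and 7 lower. In 239 of the 646 higher calls both 24-hour arrays lay below 250, and in 140 of the 643 lower calls both mid-maturation arrays did. For those the fold is a lower bound. At the edge of the rule, AT1G22930 was called higher with a smallest pairing of 2.00027-fold, while AT2G18100 was left out with 1.99954-fold.

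**Figure D1:**
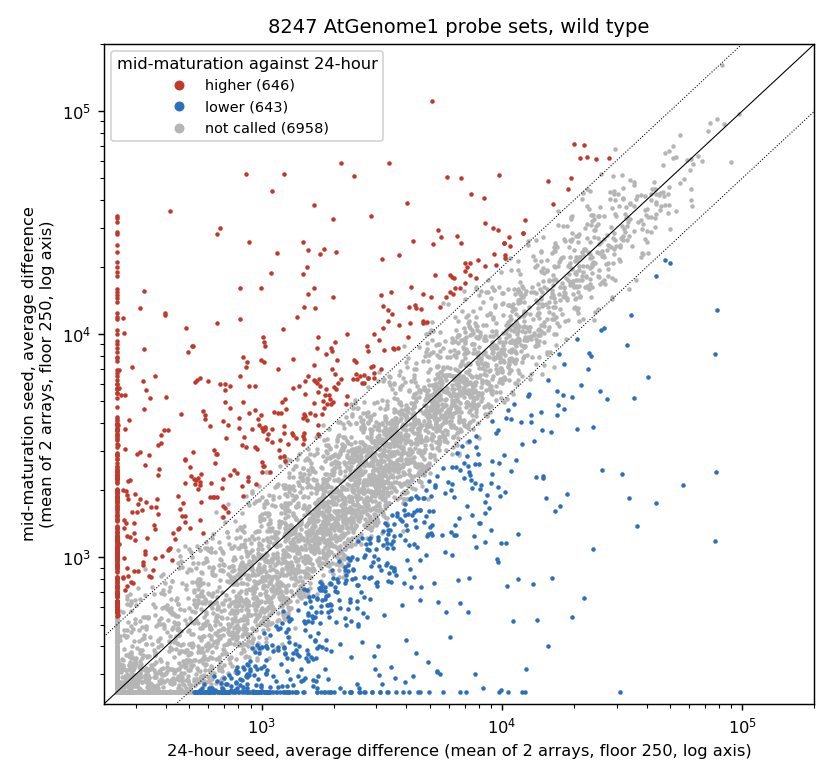
Mean average difference of the 2 mid-maturation arrays (vertical, log axis) against that of the 2 24-hour arrays (horizontal, log axis) for 8247 AtGenome1 probe sets, with values below 250 set to 250. Red points are the 646 probe sets higher in mid-maturation seed, blue points the 643 lower, grey points the 6958 not called, and dotted lines mark 2-fold. The column of red points at the left edge is probe sets below 250 in 24-hour seed.

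Probe sets that named exactly 1 gene numbered 3794, for 3602 genes. Of these genes, taken with 1 probe set each, 249 (6.91%) were higher and 266 (7.38%) lower in mid-maturation seed. Another 70 probe sets named several genes and 4383 were unnamed in the annotation used. Of 164 genes with several probe sets, 36 had a called one. In 17 of the 36 every probe set was called the same way, in 19 only some were, and in 0 did called probe sets disagree in direction. Where a gene is given below only by its locus number, its protein family is background knowledge and not part of the annotation used.

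Genes for reserve storage were among the largest differences in favour of mid-maturation seed. OLEO3, an oleosin of the oil body surface, had average differences of 25980.1 and 24063 in mid-maturation seed, against -395 and -408 in 24-hour seed, a difference of at least 100-fold. AT4G36700, a cupin related to the vicilin storage proteins, had 19062 and 20899.7 in mid-maturation seed, against 12 and -73.6 in 24-hour seed, at least 79.8-fold. For both genes the mid-maturation arrays lay far above the 24-hour arrays, which gave no signal above the floor. AT2G28490, another cupin, was called too, with 1195 and 1272 in mid-maturation seed and 36.9 and 204 in 24-hour seed, at least 4.93-fold, and had 130075 and 120279 in late-maturation seed. The third measured gene of the storage list, AT1G03890, a cruciferin-type globulin, was below the floor on every array of the comparison, at -81.4 and -213 in mid-maturation seed and -129 and -68.6 in 24-hour seed, and had 91732 and 83897 in late-maturation seed. The second measured oil body gene, AT2G25890, an oleosin family member, had 346 and 296 in mid-maturation seed and 8.6 and -122 in 24-hour seed and was not called, and it had 46462 and 43738 in late-maturation seed. Thus 2 of 3 storage genes and 1 of 2 oil body genes were higher and 0 were lower, with list medians of 2.3 and 3.5 on the log2 scale, beside 0 over all 3602 genes. Of all those genes, 6.91% were higher.

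All 3 measured vacuolar processing enzymes, the proteases that mature storage proteins and that also act in dying seed coat cells, were higher in mid-maturation seed. Over all 3602 genes the higher share was 6.91%. GAMMA-VPE had 24532 and 26784 in mid-maturation seed, against 9959 and 10499.6 in 24-hour seed, 2.51-fold. ALPHA-VPE had 1484 and 1569 in mid-maturation seed and 110.4 and 109 in 24-hour seed, at least 6.1-fold. BETA-VPE, the seed-type enzyme, had 1058 and 1071 in mid-maturation seed and 148 and 108 in 24-hour seed, at least 4.26-fold. The 3 genes differed in what followed, since BETA-VPE had 51681 and 46280 in late-maturation seed and ALPHA-VPE 2139.9 and 2186. EEL, a bZIP transcription factor related to ABI5 that binds promoters of late maturation genes, was the single measured regulator. It had 908 and 1331 in mid-maturation seed and 113 and 207 in 24-hour seed, at least 4.4-fold, and 20173 and 19564 in late-maturation seed. A floor of 500 ended the call of EEL, and a 3-fold threshold that of GAMMA-VPE.

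Of 16 measured LEA and dehydrin genes, 3 were higher, 0 lower, and 9 lay below 250 on all 4 arrays, so the list median was 0. The higher share over all 3602 genes was 6.91%. The called genes were COR47, DI21 and LTI30. COR47, a dehydrin induced by cold and drought, had 12878 and 13458 in mid-maturation seed, against 297 and 329.6 in 24-hour seed, 42.1-fold, and its second probe set was called higher as well. Both of these probe sets carry the identifier suffix _s, which marks sets whose probes may also match other transcripts. COR47 was lower in late-maturation seed, at 3756 and 3953. DI21, a drought-induced LEA protein, had 1857 and 1877 in mid-maturation seed and 536 and 696 in 24-hour seed, 3.06-fold. LTI30, a cold-induced dehydrin, had 674 and 669 in mid-maturation seed and -12.7 and -11.5 in 24-hour seed, at least 2.69-fold. These calls of DI21 and LTI30 ended at a 3-fold threshold, and that of LTI30 also with a floor of 500. A second probe set of DI21 was higher with a log2 difference of 2.14 and kept its call at both settings.

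Several LEA genes that were not called had signals in wild-type late-maturation seed far above those of either earlier stage. AtLEA4-1 had 139.9 and 185 in mid-maturation seed and -32.8 and -80.0 in 24-hour seed, and 66543 and 63967 in late-maturation seed. AT3G15670 had -59.3 and -119 in mid-maturation seed and -85.1 and -2.0 in 24-hour seed, and 92684 and 85061 in late-maturation seed. The gene whose symbol is LEA, a dehydrin (AT2G21490), had 364 and 429 in mid-maturation seed, 104 and 165 in 24-hour seed and 97969 and 101246 in late-maturation seed. In wild type these 3 genes thus had high values at the last stage alone. LEA18 was nearest to a call among the rest, with 436 and 561 in mid-maturation seed, -9.2 and 2.2 in 24-hour seed and a log2 difference of 0.98. AT2G44060 ran the other way without being called, at 10250.3 and 11472 in mid-maturation seed, against 14859 and 14984 in 24-hour seed.

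Both measured genes of the tannin branch were higher at mid-maturation and had lower values again in late seed. DFR, dihydroflavonol reductase, which supplies both anthocyanins and tannins, had 24063 and 23440.5 in mid-maturation seed, against 1619 and 1514 in 24-hour seed, 15.2-fold, and 2203 and 1906 in late-maturation seed. BAN, anthocyanidin reductase, which commits the pathway to tannins in the inner coat, had 7789 and 10171 in mid-maturation seed and 1003 and 1063 in 24-hour seed, 8.62-fold, and 81.4 and 109 in late-maturation seed. These were the only 2 measured of the 22 genes of the flavonoid list, and BAN was also the single measured one of 10 seed coat markers. Among all 3602 genes the higher share was 6.91%. PHE1, the single measured endosperm marker, had 313 and 218 in mid-maturation seed and 33.1 and 28.5 in 24-hour seed, mostly below the floor, and was not called. No gene of the silique wall list was measured, so maternal tissue outside the seed could not be checked.

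Of 10 measured photosynthesis genes, 2 were called higher and 0 lower, all 10 differences were above 0, and the list median was 0.52 on the log2 scale. Beside this, 6.91% of all 3602 genes were called higher. PSAN, a subunit of photosystem I, had 11704 and 11284 in mid-maturation seed, against 5544 and 3956 in 24-hour seed, 2.45-fold. LHCB4.3, a light-harvesting antenna protein, had 5891 and 4726 in mid-maturation seed and 2336 and 2191 in 24-hour seed, 2.33-fold. Neither call held at 3-fold. LHB1B2, a light-harvesting protein of photosystem II, was not called and had 46024 and 47234 in mid-maturation seed and 33106 and 37909.5 in 24-hour seed. Of the fatty acid synthesis list 0 of 3 genes were called. FaTA, an acyl-ACP thioesterase that releases fatty acids for oil, had 7272 and 7714 in mid-maturation seed, 4218 and 3736 in 24-hour seed and a log2 difference of 0.92. FATB, the thioesterase for saturated chains, had 3971 and 3973 in mid-maturation seed and 3458 and 3768 in 24-hour seed. AT1G24360, a ketoacyl-ACP reductase, had 54874 and 43641 in mid-maturation seed and 34511 and 33851 in 24-hour seed.

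No gene of starch metabolism or reserve mobilisation was called, beside 14.3% of all 3602 genes called either way. SBE2.2, a starch branching enzyme, had 3244 and 3273 in mid-maturation seed and 2433 and 2165 in 24-hour seed. APL3, a large subunit of ADP-glucose pyrophosphorylase, had 722 and 992 in mid-maturation seed and 759.5 and 684 in 24-hour seed, so 0 of 2 sucrose and starch genes were called. ICL, isocitrate lyase of the glyoxylate cycle, was not called, with 580.2 and 614 in mid-maturation seed and 304 and 511 in 24-hour seed, and had 17256 and 18632 in late-maturation seed. AIM1, a multifunctional protein of fatty acid oxidation, had 33873 and 31928 in mid-maturation seed and 19384 and 19236 in 24-hour seed, a log2 difference of 0.77 without a call.

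**Figure D2:**
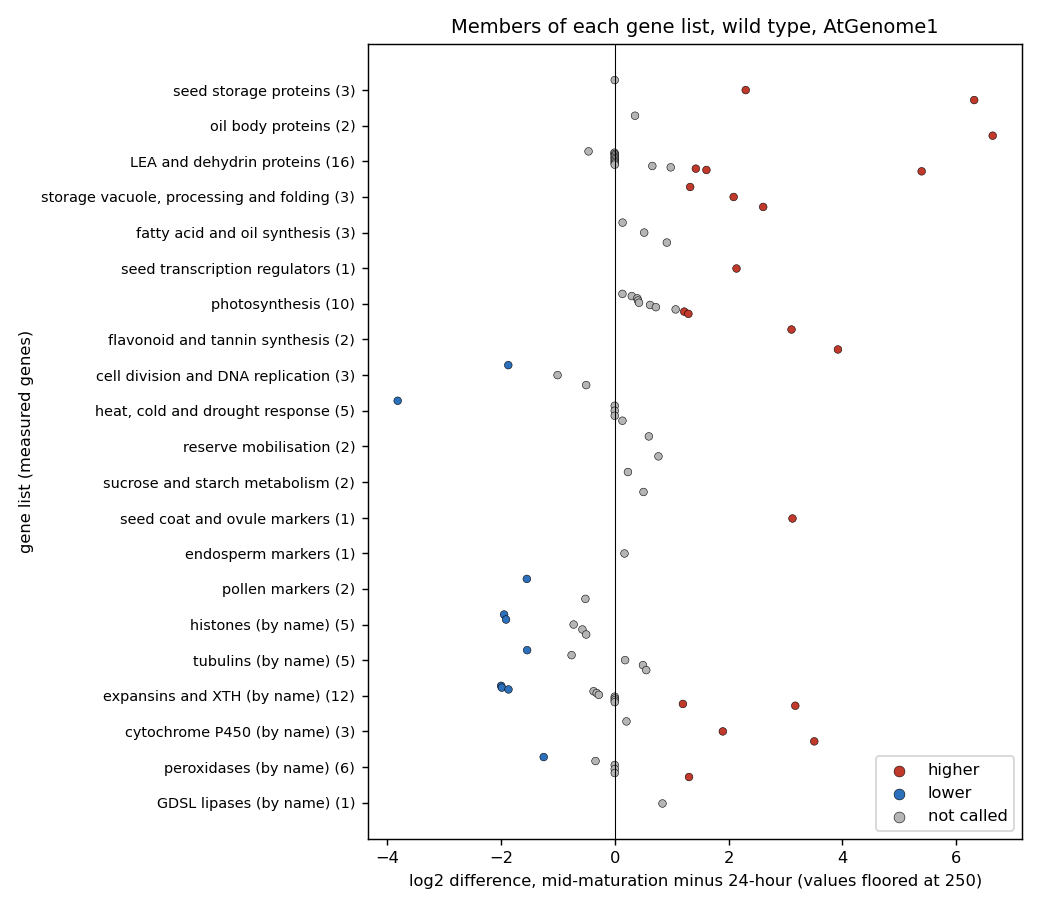
Log2 difference, mid-maturation minus 24-hour seed, of each measured gene (point) by gene list, with values floored at 250 and the number of measured genes in brackets. Red points were higher by size, blue lower and grey not called, and XTH stands for xyloglucan endotransglucosylases. The members farthest to the right belong to the oil body, storage, LEA and flavonoid lists, at 6.64, 6.32, 5.40 and 3.92. In the LEA list 9 of 16 members sit at 0 because every array was below the floor.

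Of the 12 largest differences in favour of mid-maturation seed among probe sets naming 1 gene, 10 were in genes of no list. Such probe sets made up 18 of the 34 higher at 32-fold or more and 4 of the 7 lower, so unnamed ones hold many of the largest differences. AT4G37520, a secreted peroxidase, had 33974 and 34122 in mid-maturation seed, against 45.6 and -2.2 in 24-hour seed, at least 136-fold. AT1G12010, an ACC oxidase that makes ethylene, had 39023 and 28088 in mid-maturation seed and 150.3 and 38.2 in 24-hour seed, at least 132-fold. AT1G23200, a pectin methylesterase, had 29066 and 28518 in mid-maturation seed and 21.9 and 57.9 in 24-hour seed, at least 115-fold. In each of these genes the 24-hour arrays were below the floor and the 2 mid-maturation arrays stood within 1.5 times of each other.

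SAG29, the sugar exporter SWEET15 that helps feed the embryo, had 15410.1 and 13579.6 in mid-maturation seed, against 67.7 and 169 in 24-hour seed, at least 57.9-fold. PDF2.1, a plant defensin, had 12786 and 12052 in mid-maturation seed and 128 and 113 in 24-hour seed, at least 49.7-fold. AT4G15390, an acyltransferase of the BAHD family, had 16215 and 14762 in mid-maturation seed and 10.7 and -102 in 24-hour seed, at least 61.9-fold. It differed from the other 11 of the largest higher genes in late-maturation seed, where it was back below the floor at 169.7 and 178.

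The remaining genes of the 12 largest were AT2G34700, of the Ole e 1 and extensin family, AT1G04660, a glycine-rich protein, AT1G47540, a trypsin inhibitor of the defensin-like type, and AT4G04460, an aspartic protease. Their differences ran from at least 46.9-fold for AT4G04460 to at least 127-fold for AT2G34700. AT1G47540 had 20574 and 21686 in mid-maturation seed, against -170 and -229 in 24-hour seed, and 107705 and 103754 in late-maturation seed. All 12 genes were below 250 on both 24-hour arrays.

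AT1G02190 had the largest difference in favour of 24-hour seed among probe sets naming 1 gene. This gene, of the fatty acid hydroxylase family, had 89.3 and 178 in mid-maturation seed, against 30344 and 31929 in 24-hour seed, at least 125-fold lower. THI2.1, a thionin with antimicrobial activity, had 2247 and 2577 in mid-maturation seed, against 77409 and 77849 in 24-hour seed, 32.3-fold lower, and was below the floor at 42.7 and -28.9 in late-maturation seed. All 3 probe sets of THI2.1 were called lower. The one without an added identifier suffix had 8511 and 7802 in mid-maturation seed, against 76179 and 77831 in 24-hour seed, 9.45-fold lower. The third was at least 11.7-fold lower. JAL23, a jacalin-related lectin, had -9.9 and -26.5 in mid-maturation seed, against 12138 and 12808 in 24-hour seed, at least 49.9-fold lower.

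ARPN, plantacyanin, a copper protein known from the pistil, had 57.0 and 112 in mid-maturation seed, against 9709 and 9699 in 24-hour seed, at least 38.8-fold lower. It was present again in late-maturation seed, at 5982 and 6234, and its other 2 probe sets were also called lower at mid-maturation. AT4G00870, the transcription factor bHLH14, had 206 and 159.7 in mid-maturation seed and 7123 and 6302 in 24-hour seed, at least 26.8-fold lower. KIN2, induced by cold and abscisic acid, had 257 and -22.8 in mid-maturation seed, against 9767 and 9965 in 24-hour seed, and 41550.3 and 42669 in late-maturation seed. Its 24-hour arrays lay far above both mid-maturation arrays. Of the 5 measured genes of heat, cold and drought response, 1 was lower (KIN2), 0 were higher and 3 were below the floor throughout. Beside this, 7.38% of all 3602 genes were lower and 6.91% higher.

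The other 6 of the 12 largest lower genes were AT4G18970, a GDSL lipase, AT4G21630, a subtilisin-type protease, AT4G29020 and AT4G29030, which lie next to each other, AT2G45180 and AT4G29700. AT4G29030 had 1871 and 2375 in mid-maturation seed, against 57083 and 55959 in 24-hour seed, 26.8-fold lower. AT4G29020, a glycine-rich protein, had 391 and 746 in mid-maturation seed, against 19606 and 19447 in 24-hour seed, 36.2-fold lower, and came back to 15876 and 16411 in late-maturation seed. The other 4 ran from 25.8-fold lower in AT4G29700 to at least 39.7-fold lower in AT4G18970, where 1 mid-maturation array was below the floor. Of the 24 genes named so far by size, the probe sets of AT4G37520, AT1G02190, ARPN, THI2.1, AT4G21630, KIN2 and AT2G45180 carry identifier suffixes (_s, _f, _i, _r) that mark sets whose probes may also match other transcripts, so a close relative could add to those values.

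**Figure D3:**
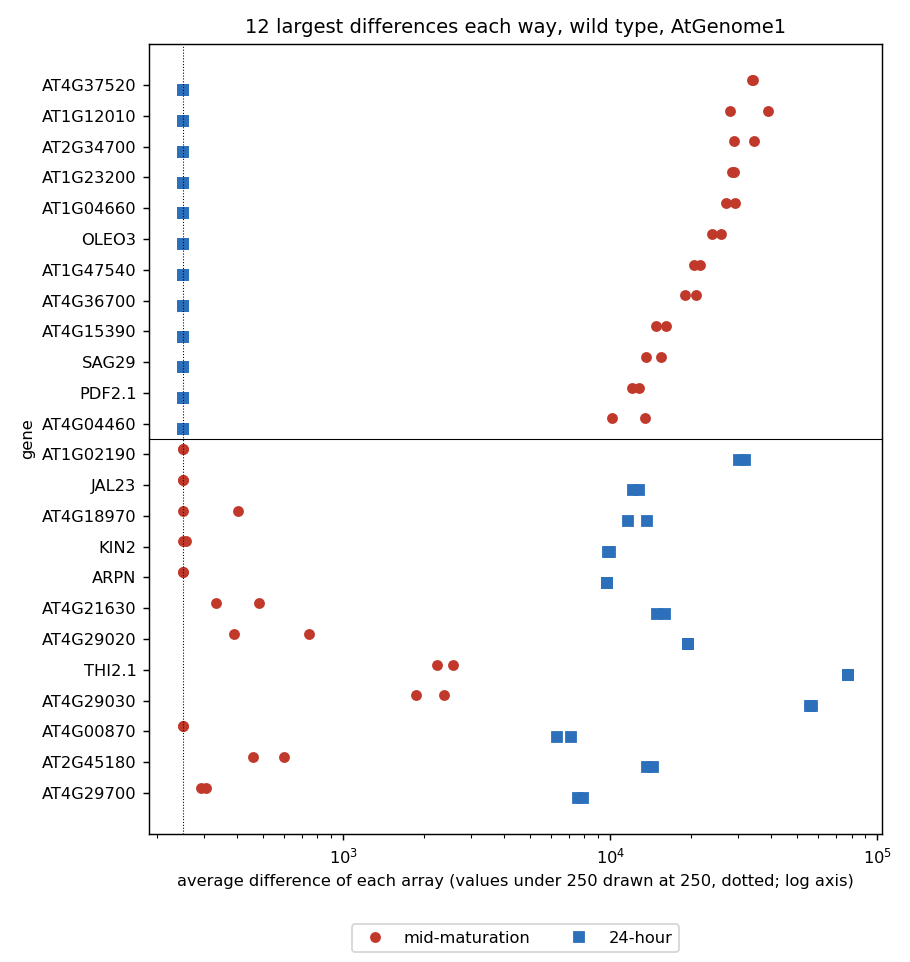
Average difference of each array (horizontal, log axis, values below 250 drawn at the dotted line) for the 12 genes with the largest differences each way, higher genes above the line and lower genes below it. Red circles are the 2 mid-maturation arrays and blue squares the 2 24-hour arrays. The call rule by which the 24 genes were chosen requires these to lie apart.

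The few called genes of the cell division, histone and tubulin lists were lower in mid-maturation seed. TOPII, topoisomerase II, which untangles DNA during replication and division, had 223 and 253 in mid-maturation seed, against 905 and 935 in 24-hour seed, at least 3.66-fold lower, 1 mid-maturation array being below the floor. PRL, a subunit of the MCM helicase that licenses DNA replication, had 16672 and 12310.4 in mid-maturation seed and 30271 and 27314 in 24-hour seed, a log2 difference of -1.01 that missed the call in 1 pairing or more. Of 3 cell division genes 1 was lower and 0 higher, with a list median of -1.01. HTB2, a histone H2B, had 5545 and 4902 in mid-maturation seed and 19539 and 19675 in 24-hour seed, 3.76-fold lower. HIS1-3, a linker histone induced by drought, had 33.9 and 99.6 in mid-maturation seed and 1060.1 and 875 in 24-hour seed, at least 3.85-fold lower, and 1832 and 1642 in late-maturation seed. All 5 histone genes had differences below 0, 2 of them called, beside 7.38% called lower over all 3602 genes. Among 5 genes found by the word tubulin, TUB5 alone was called, 2.91-fold lower. It had 593 and 619 in mid-maturation seed and 1622 and 1913 in 24-hour seed. TUB9, TUB6 and TUA1 went the other way without a call, at log2 differences of 0.18, 0.50 and 0.55. POR, also not called, was at -0.76. The calls of TOPII and HIS1-3 ended with a floor of 500, and that of TUB5 at 3-fold.

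Genes found by name in families of the cell wall and of oxidation were called in both directions. Of 12 expansin and xyloglucan endotransglucosylase genes, which loosen walls as cells grow, 2 were higher, 3 lower and 4 below the floor throughout. Over all 3602 genes, 6.91% were higher and 7.38% lower. EXPB1, a beta-expansin, had 2048 and 2485 in mid-maturation seed, against 115 and 175 in 24-hour seed, at least 9.02-fold, although its second probe set was not called. EXGT-A3 had 23921 and 25678 in mid-maturation seed and 10450.5 and 11163 in 24-hour seed. EXPA15 had 1827 and 2254 in mid-maturation seed, against 8064 and 8134 in 24-hour seed, 3.99-fold lower, and 17578 and 20175 in late-maturation seed. EXLA2 and EXPA8 were below the floor in mid-maturation seed and near 1000 in 24-hour seed, at 1118 and 876 and at 902 and 923, and both calls ended with a floor of 500. The call of EXGT-A3 ended at 3-fold.

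Of 3 measured cytochrome P450 genes found by name, the neighbouring CYP71B29 and CYP71B28 were both higher and 0 were lower. CYP71B6 was not called, at a log2 difference of 0.21. Among all 3602 genes, 6.91% were higher and 7.38% lower. CYP71B29 had 2866 and 2820.2 in mid-maturation seed and 57.6 and 195 in 24-hour seed, at least 11.4-fold, and CYP71B28 had 6195 and 6212 in mid-maturation seed and 1774 and 1557 in 24-hour seed, 3.73-fold. Of 6 genes found by the word peroxidase, PRXR1 was higher, at 67493 and 55468 in mid-maturation seed and 25927 and 23625 in 24-hour seed, and TAPX, the ascorbate peroxidase of chloroplast thylakoids, was lower, at 891 and 1074 in mid-maturation seed and 2372 and 2278 in 24-hour seed. Both peroxidase calls ended at 3-fold, and a second probe set of TAPX was not called. The single gene found by the word GDSL, AT1G54010, had 2739 and 1926 in mid-maturation seed and 1159.5 and 1453 in 24-hour seed and was not called. These word searches read symbols and synonyms alone, so they do not cover whole families. They left out AT4G37520, given above as a peroxidase and at least 136-fold higher. Also left out was AT4G18970, given above as a GDSL lipase and at least 39.7-fold lower.

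Of the pollen list 2 genes were measured, 1 of them lower and 0 higher, beside 7.38% lower over all 3602 genes. VGD1, a pectin methylesterase of pollen tubes, had 51.9 and 35.3 in mid-maturation seed, against 698 and 762 in 24-hour seed, at least 2.92-fold lower, a call that ended at 3-fold and with a floor of 500. VGDH1, its homologue, had 141 and 142 in mid-maturation seed and 376 and 340.1 in 24-hour seed and was not called. The gene after VGD1 on the chromosome, AT2G47050, was called lower too, with a log2 difference of -3.86. The part of pollen RNA in the other lower genes was not tested.

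Neighbouring genes were compared because tandem copies are common among seed and defence genes. Both genes were measured in 1210 pairs of adjacent genes, and in 31 of these (2.56%) both were called, beside 14.3% of single genes called either way. Of the 31, 8 were both higher, 12 both lower and 11 mixed. No difference from what single genes would give was tested, so nothing is read from the count. PDF2.1 and LCR68, defensin-type genes, were both higher, with log2 differences of 5.63 and 1.5. AT4G21630, AT4G21640 and AT4G21650, consecutive genes, were all lower, at -5.27, -3.42 and -2.31. BGLU28 and BGLU29, adjacent beta-glucosidase genes, went opposite ways, with 3572 and 4712 in mid-maturation seed and 60.4 and 98.2 in 24-hour seed for BGLU29, and 12.5 and -98.4 in mid-maturation seed and 1355 and 1252 in 24-hour seed for BGLU28. UGT84A3 and UGT84A1, adjacent glycosyltransferase genes, did the same, with log2 differences of 2.07 and -2.96. These pairs were chosen after their values were seen.

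**Figure D4:**
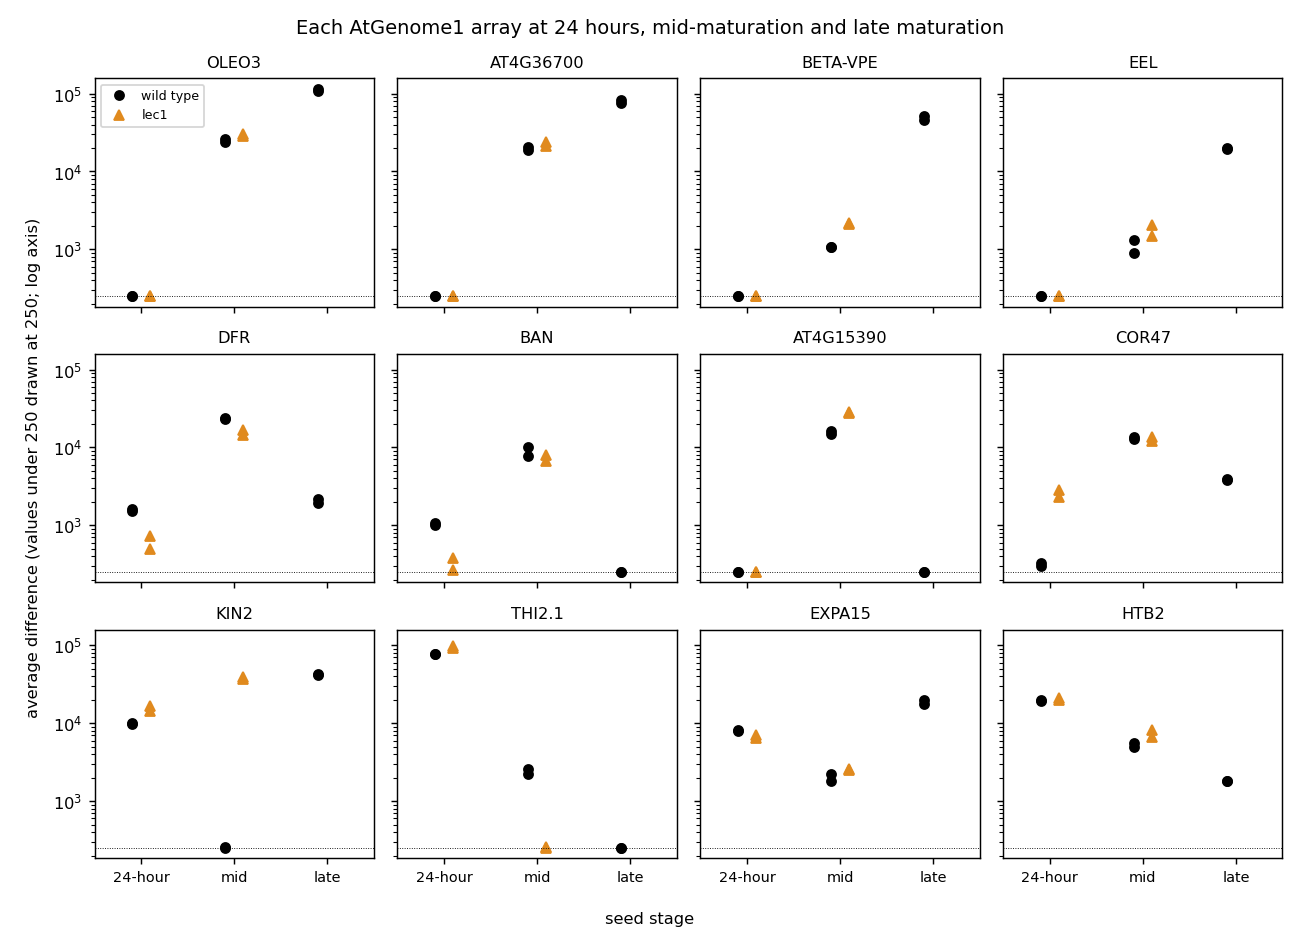
Average difference of each AtGenome1 array (vertical, log axis, values below 250 drawn at the dotted line) at 24 hours, mid-maturation and late maturation for 12 genes, with wild type as black circles and lec1 as orange triangles (not measured at late maturation). KIN2 is shown by the probe set with the larger wild-type difference. DFR, BAN, AT4G15390 and COR47 were highest at mid-maturation in wild type. BETA-VPE and EEL went on to 46280.0 or more and 19564 or more in late seed, and KIN2 was lowest at mid-maturation in wild type alone.

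The same stages of lec1, in separate arrays, gave 592 probe sets higher (7.18%) and 646 lower (7.83%) at mid-maturation than at 24 hours. Of the wild-type higher calls 399 were also higher in lec1, 61.8% of the wild-type calls and 67.4% of those of lec1. Of the wild-type lower calls 409 were shared, 63.6% of the wild-type calls and 63.3% of those of lec1. The reserve genes OLEO3 and AT4G36700 were higher in lec1 as well, at 29940 and 28545 in lec1 mid-maturation seed against -1061 and -329.8 in lec1 24-hour seed for OLEO3, and 21443 and 23775 against 87.2 and 15.2, in the same order, for AT4G36700. AT1G12010 already had 10095 and 10142 in lec1 24-hour seed, and its lec1 log2 difference was 3.05, beside 7.05 in wild type. In the LEA list 3 of 16 genes were higher in wild type and 12 of 16 in lec1. AT3G15670 had 44010.3 and 45602 in lec1 mid-maturation seed, against -163 and -35.2 in lec1 24-hour seed, and AtLEA4-1 had 14246 and 14644 in lec1 mid-maturation seed, against 71 and 229.8 in lec1 24-hour seed. The genes LEA and LEA18 were likewise higher in lec1, with log2 differences of 6.52 and 6.82, and so was the oleosin family member AT2G25890, at 4.18. Those 5 genes were not called in wild type. AT1G54010 was also called higher in lec1 alone and VGDH1 and AT1G53540, a small heat shock protein, lower in lec1 alone. Of the list members, PSAN, LHCB4.3, TOPII, TUB5, EXGT-A3 and CYP71B28 were called in wild type and not in lec1. TOPII had 324 and 247 in lec1 24-hour seed, too near the floor for a lower call. LHCB4.3 and TUB5 had lec1 log2 differences of 1.10 and -1.05, beside 1.22 and -1.54 in wild type. The difference between genotypes was not tested, since each group is 1 sample.

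In 14 probe sets the call turned round between genotypes, 9 higher in wild type and lower in lec1 and 5 lower in wild type and higher in lec1. KIN2 accounted for 2 of the 5, the other 3 being unnamed. Its wild-type values were 257 and -22.8 in mid-maturation seed and 9767 and 9965 in 24-hour seed, while in lec1 it had 39203 and 36872 in mid-maturation seed and 16577 and 14392 in 24-hour seed. Of the 5 AtGenome1 groups, wild-type mid-maturation seed had the lowest KIN2 values.

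The ATH1 arrays were separate arrays with biological replicates that allow a test, although no ATH1 stage bears the name mid-maturation. They were tested with limma on log2(signal + 50) over 18459 probe sets, with Benjamini-Hochberg adjustment and a threshold of 0.05. Mature green seed had 3371 probe sets higher (18.3%) and 4435 lower (24%) than 24-hour seed. Cotyledon-stage seed, a comparison added after the data were seen, had 2237 higher (12.1%) and 2260 lower (12.2%). Both contrasts share the 24-hour ATH1 arrays. A tested ATH1 probe set and an AtGenome1 probe set named the same gene for 2645 genes.

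Of the 213 genes higher on AtGenome1 at mid-maturation, 176 (82.6%) were higher and 2 lower at the cotyledon stage on ATH1, and 134 (62.9%) were higher and 13 lower in mature green seed. Over all 2645 genes the higher shares were 13.5% at the cotyledon stage and 18.9% in mature green seed. Of the 236 genes lower on AtGenome1, 141 (59.7%) were lower and 0 higher at the cotyledon stage, and 149 (63.1%) were lower and 10 higher in mature green seed. The lower shares over all 2645 genes were 12.6% at the cotyledon stage and 23.5% in mature green seed. Across 2169 genes not below the floor throughout, Pearson's r of the AtGenome1 difference with the ATH1 difference was 0.827 for the cotyledon stage, 0.594 for mature green and 0.460 for post-mature green seed. These 3 values share the 24-hour ATH1 arrays and genes are not independent replicates, so they describe likeness only.

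**Figure D5:**
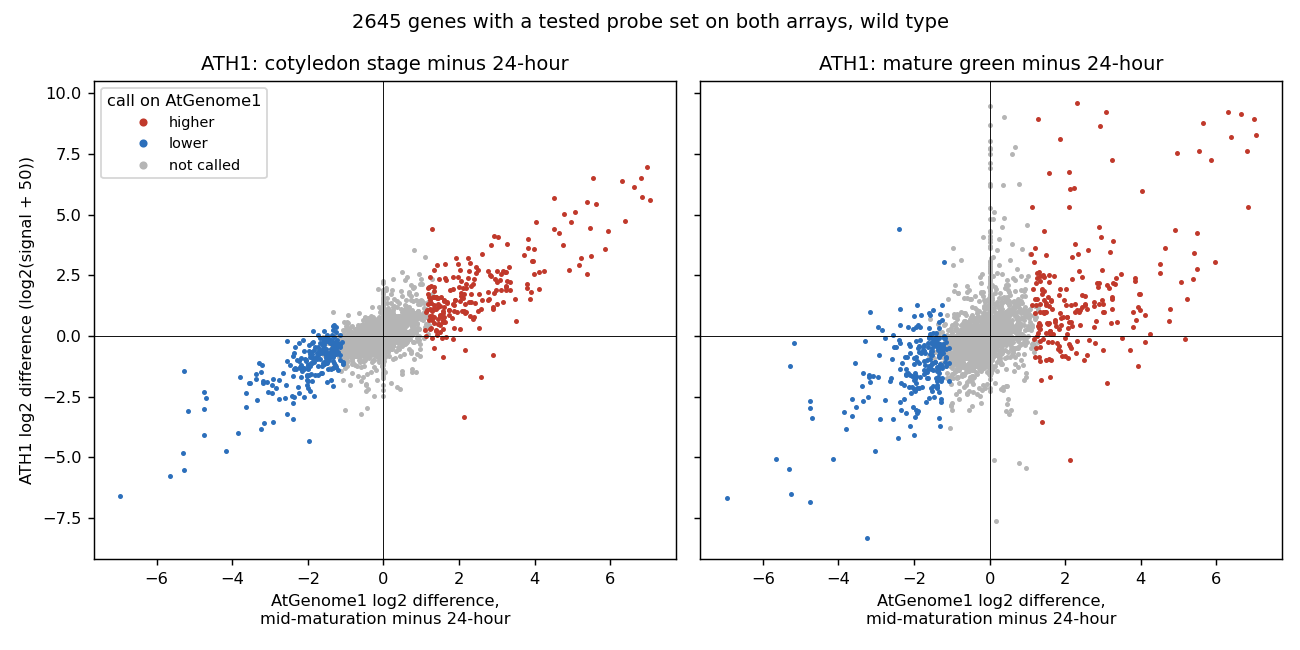
Log2 difference on ATH1 (vertical), cotyledon stage minus 24-hour on the left and mature green minus 24-hour on the right, against the AtGenome1 difference, mid-maturation minus 24-hour (horizontal), for 2645 genes as points. Red genes were higher, blue lower and grey not called on AtGenome1. The cotyledon-stage panel follows the AtGenome1 difference more closely (r of 0.827, against 0.594), and the grey column at 0 on the right holds genes below the floor on AtGenome1 that were high in mature green seed.

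Of the 24 genes with the largest differences, 22 were tested on ATH1. All 11 of the higher ones passed as higher at both ATH1 stages. Of the 11 lower ones, all passed as lower at the cotyledon stage and 10 in mature green seed. The call of ARPN was lost without the second 24-hour array, with limma adjusted p = 0.142 at the cotyledon stage and 0.168 in mature green seed. It was also lost without the first cotyledon-stage array (limma adjusted p = 0.0618) or the second mature green array (limma adjusted p = 0.173). OLEO3 had signals of 8538 and 5690.3 at the cotyledon stage, against 59.4 and 39.9 in 24-hour seed, at least 69.7-fold (log2 difference 6.15 ± 0.56 SE, n = 2 each, limma adjusted p = 8.62e-08). It had 57360.4 and 54787 in mature green seed, at least 561-fold above 24-hour seed (limma adjusted p = 1.48e-10). AT1G02190 had 26.5 and 21.8 at the cotyledon stage, against 6648 and 7620.1 in 24-hour seed, at least 71.2-fold lower (log2 difference -6.60 ± 0.32 SE, n = 2 each, limma adjusted p = 2.44e-11). AT4G29020 was the exception, with 392.4 and 271 at the cotyledon stage, against 2905 and 3476 in 24-hour seed (log2 difference -3.10 ± 0.27 SE, limma adjusted p = 4.75e-08), and 3036 and 2216 in mature green seed (limma adjusted p = 0.42).

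The tannin genes took opposite signs at the 2 ATH1 stages. DFR had 17775 and 15314 at the cotyledon stage, against 2024 and 1803 in 24-hour seed (log2 difference 3.08 ± 0.26 SE, n = 2 each, limma adjusted p = 3.19e-08). In mature green seed DFR had 625 and 954, below the same 24-hour arrays (log2 difference -1.25 ± 0.26 SE, limma adjusted p = 0.00064). BAN had 15821 and 14736 at the cotyledon stage, against 3015 and 2213 in 24-hour seed (log2 difference 2.54 ± 0.33 SE, limma adjusted p = 9.22e-06), and 434 and 927 in mature green seed (log2 difference -1.94 ± 0.33 SE, limma adjusted p = 9.9e-05). Mid-maturation seed on AtGenome1, with both genes well above 24-hour seed, thus shared its direction with the cotyledon stage.

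Some genes with high values in late-maturation seed alone were higher in mature green seed. AT1G03890, below the floor at mid-maturation, had 31.7 and 42.6 at the cotyledon stage and 3.8 and 24.1 in 24-hour seed (limma adjusted p = 0.211), and 52489 and 39562 in mature green seed, at least 456-fold above 24-hour seed (limma adjusted p = 2.91e-15). AtLEA4-1 had 16.6 and 15.9 at the cotyledon stage, 15136 and 7188 in mature green seed and 4.1 and 13.7 in 24-hour seed, and passed in mature green seed alone (limma adjusted p = 3.92e-12, against 0.792 at the cotyledon stage). ICL had 6.4 and 3.5 at the cotyledon stage, 17537 and 8246 in mature green seed and 17.7 and 14.4 in 24-hour seed, at least 120-fold higher in mature green seed (limma adjusted p = 5.75e-13). BETA-VPE and EEL were higher at both stages. BETA-VPE had 414 and 272 at the cotyledon stage and 16753 and 11010.5 in mature green seed, against 84.4 and 67.6 in 24-hour seed, at least 3.35-fold and 136-fold higher. EEL had 410 and 412 at the cotyledon stage and 10639.7 and 7906 in mature green seed, against 80.1 and 98.5 in 24-hour seed, at least 4.11-fold and 91.7-fold higher. Of 476 genes below 250 on all 4 AtGenome1 arrays, 89 (18.7%) were higher in mature green seed and 32 (6.72%) at the cotyledon stage. Over all 2645 genes those shares were 18.9% and 13.5%, so the share in mature green seed was that of all genes. The late genes M10, AT3G22490 and AT4G36600 did not pass in mature green seed (limma adjusted p = 0.213, 0.361 and 0.12).

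A few genes went apart between the arrays. TOPII, lower on AtGenome1, had 1395 and 1089.9 at the cotyledon stage and 1471 and 1441 in 24-hour seed (limma adjusted p = 0.431), and was lower in mature green seed, at 255 and 326 (log2 difference -2.15 ± 0.19 SE, limma adjusted p = 2.08e-08). CYP71B29, higher on AtGenome1, had 17.9 and 95.5 at the cotyledon stage and 10.3 and 19.8 in 24-hour seed, all below a signal of 100, and did not pass (limma adjusted p = 0.321). HTB2 was lower in all, with 1074 and 1098 at the cotyledon stage and 275 and 379 in mature green seed, against 3142 and 3558 in 24-hour seed (limma adjusted p = 2.35e-05 and 1.13e-09). EXGT-A3, higher on AtGenome1, was higher at the cotyledon stage (log2 difference 1.59 ± 0.20 SE, limma adjusted p = 6.82e-06) and lower in mature green seed (log2 difference -0.84 ± 0.20 SE, limma adjusted p = 0.00232).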

How the data were processed

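Total RNA was converted to biotinylated cRNA and hybridized, per the labels' protocols. Per the labels, the intensity deposited for each AtGenome1 probe set is the average difference of Microarray Suite 4.0 at a target of 2500, and that for ATH1 is the signal of version 5.0 at a target of 500. On the 4 AtGenome1 arrays, 12.4% to 14.1% of values were at or below 0. The number of arrays limits the precision.

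Values on AtGenome1 were floored at 250, and a probe set was called at 2-fold in all 4 array pairs. ATH1 was fitted with limma 3.58.1 (R 4.3.3, lmFit and eBayes with trend) on log2(signal + 50), with all 20 arrays in 1 model (10 residual and 8.64 prior degrees of freedom), probe sets reaching 100 on at least 2 arrays, two-sided tests and Benjamini-Hochberg adjustment over 18459 probe sets. Errors are moderated standard errors. Where both arrays of 1 ATH1 group were below 100, a fold is a bound, taken as the brighter group's geometric mean divided by 100. Both call rules were tested on simulated data. Gene names came from the platform annotation and TAIR10.1 (used for names and neighbours), for 3794 AtGenome1 and 13513 ATH1 probe sets.

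The rule named, among probe sets naming exactly 1 gene, the 12 largest called differences each way and up to 3 called genes of each list (where none was called, the gene with the highest value); on ATH1 the same genes, 48 of 53 tested. Other list members, genes at the threshold and neighbouring genes given by name fall outside this rule and were picked after their values were seen. Lists with no gene among probe sets naming 1 gene (abscisic acid and gibberellin, silique wall) gave no value. Families were searched by words in gene symbols and synonyms alone. The words for ribosomal, lipid transfer and proteasome proteins matched no gene, so members measured under other names were not counted. The members, lists and rule were chosen with earlier results of these data known. Alternatives were other floors, thresholds, scalings, offsets and filters, the chip lot statement, a replicate block and leaving out each array. LEC1 was not analysed here.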

Additional observations from a re-analysis of the deposited data

Results flagged for a closer look

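KIN2, a gene induced by cold and abscisic acid, drew attention because its 2 AtGenome1 probe sets went opposite ways in the 2 genotypes, with every pairing of arrays on the same side. In wild type the floored log2 difference, mid-maturation minus 24-hour, was -5.28 for one probe set and -3.82 for the other. In lec1 it was 1.30 and 1.22. The second probe set had 826 and 675 in wild-type mid-maturation seed and 10506 and 10531 in wild-type 24-hour seed, and 39956 and 44615 in lec1 mid-maturation seed and 18209.9 and 18007 in lec1 24-hour seed. The difference between genotypes was not tested, because each group is 1 sample. No ATH1 probe set naming KIN2 alone was tested. Groups of 2 arrays are too small for a check of single outlying arrays.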

How the results depend on the processing

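No called difference of a gene named by the rule turned round under any alternative, apart from the change of ATH1 stage. On AtGenome1 the 646 higher and 643 lower probe sets became 402 and 312 at 3-fold, all of them among the original calls. Other floors, scalings and a 2-fold difference of means gave 543 to 790 higher and 495 to 864 lower. Leaving out 1 array gave 675 to 733 higher and 703 to 893 lower. Scaling to a common 75th percentile moved the median log2 difference of the probe sets averaging at least 250 to -0.11, against -0.21 as deposited, and gave 681 higher and 569 lower. Among list members and the families below, a floor of 500 ended the calls of LTI30, EEL, TOPII, VGD1, HIS1-3, EXLA2, EXPA8, UGT73C2, TBL24, TBL30 and BGLU45, and 3-fold those of DI21 (1 of 2 probe sets), LTI30, GAMMA-VPE, PSAN, LHCB4.3, VGD1, TUB5, EXGT-A3, PRXR1, TAPX, UGT73C2, TBL24 and TBL23. With a floor of 100, 5 LEA genes and 2 oil body genes were higher, against 3 and 1 with the floor of 250. The added genes were LEA18, LEA and AT2G25890.

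On ATH1, using the cotyledon stage in place of mature green gave 2237 higher and 2260 lower, against 3371 and 4435. With that stage the log2 difference was 2.54 for BAN (mature green -1.94), 3.08 for DFR (-1.25), -1.21 for EXPA15 (0.83) and 1.07 for SBE2.2 (-0.19), and EXGT-A3, a list member, turned as well (1.59, mature green -0.84). With 1 array left out, mature green counts lay between 2762 and 3090 higher and between 3371 and 4127 lower. The cotyledon counts then lay between 1615 and 1723 higher and between 1377 and 1463 lower. Fewer samples enter those fits. The fit with a replicate block gave 3380 higher and 4508 lower for mature green and 2284 and 2301 for the cotyledon stage. The 2 groups share only replicate numbers (correlation of deviations 0.0737), so the block is no pairing. Apart from the change of stage, of 48 named genes 9 had a call that changed under some alternative in mature green seed and 9 at the cotyledon stage, among them ARPN, which without 1 array had limma adjusted p = 0.142 at the cotyledon stage and 0.173 in mature green seed. The AtGenome1 counts came from no test, so no paired fit exists there, and with 1 sample per stage they cannot show variation between plants.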

Other observations

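Several enzyme families of the cell wall and of secondary metabolism, picked by symbol after their values were seen and therefore given without a test, held genes that differed between the stages. Of 12 TRICHOME BIREFRINGENCE-LIKE genes, a family of wall polysaccharide acetyltransferases, 5 were lower, 1 was higher and 4 lay below 250 throughout, beside 6.91% higher and 7.38% lower over all 3602 genes. TBL39 had 554 and 723 in mid-maturation seed, against 5699 and 5121 in 24-hour seed, and TBL30, the higher one, had 932 and 1019 in mid-maturation seed, against 34.1 and 30.9 in 24-hour seed. The calls of TBL30 and TBL24 ended with a floor of 500. Of 8 genes of glycosyl hydrolase family 9, which holds the plant endoglucanases, GH9B17 and GH9B13 were lower and GH9B8 higher. GH9B8 had 4582 and 3450 in mid-maturation seed, against 5.5 and -45.9 in 24-hour seed, while GH9B13 had 1894 and 1795 in mid-maturation seed, against 14305 and 16132 in 24-hour seed.

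All 3 glutathione S-transferases found by symbol, enzymes of detoxification and flavonoid transport, were higher, each at least 4.54-fold. Over all 3602 genes, 6.91% were higher. GSTF3 was read by a probe set with the suffix _f, so related transcripts could add to its value, and it was not tested on ATH1. GSTU18 had 1314 and 1403 in mid-maturation seed, against 91.7 and -9.9 in 24-hour seed, and both members tested on ATH1 were higher at the cotyledon stage than in 24-hour seed by limma. Of 20 UDP-glycosyltransferases, which attach sugars to small molecules, 4 were higher, 1 was lower and 8 lay below 250 throughout. The shares over all 3602 genes were 6.91% higher and 7.38% lower. UGT71D1 had 2218 and 2038 in mid-maturation seed, against 573 and 488 in 24-hour seed.

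AT2G20670 was the single gene that was called higher on AtGenome1 and passed as lower in both ATH1 contrasts. On AtGenome1 it had 1114 and 1062 in wild-type mid-maturation seed, against 136 and 149 in wild-type 24-hour seed, and 129 and 77.8 in lec1 mid-maturation seed, against 3103 and 3455 in lec1 24-hour seed. On ATH1 it had 74.0 and 349.7 at the cotyledon stage and 7.3 and 21.7 in mature green seed, against 3117 and 1499.6 in 24-hour seed. Its wild-type 24-hour level was thus below the floor on AtGenome1 and well above 1000 on ATH1. The AtGenome1 probe set of AT2G20670 carries the suffix _s, which marks probes that may also match other transcripts. Of the other genes named among the wild-type higher, lec1 lower probe sets, AT2G05540 had 4373 and 5654 in wild-type mid-maturation seed, against 738 and 943 in wild-type 24-hour seed, and 8125 and 8479 in lec1 mid-maturation seed, against 21049 and 23715 in lec1 24-hour seed. On ATH1, AT2G05540 did not pass, with log2 differences of -1.67 at the cotyledon stage (limma adjusted p = 0.076) and -0.77 in mature green seed (limma adjusted p = 0.378). AT4G32480 had 1866 and 2696 in wild-type mid-maturation seed, against 686 and 700 in wild-type 24-hour seed, and 795 and 973 in lec1 mid-maturation seed, against 5132 and 7212 in lec1 24-hour seed. AT1G09500 and AT4G25170 had wild-type log2 differences of 2.24 and 1.24 and lec1 ones of -1.30 and -1.35. On ATH1, AT1G09500 was higher at the cotyledon stage (limma adjusted p = 1.24e-05) and in mature green seed (limma adjusted p = 1.72e-11). AT4G25170 was higher in mature green seed alone (limma adjusted p = 8.45e-05, against 0.482 at the cotyledon stage). No cause of these values was tested.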
